A study of Mus musculus with 8 samples.

Results

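Iron storage and redox defence were followed through 10 genes in the islet cells of mice with and without partial removal of the pancreas. The ferritin chains Ftl1 and Fth1, thioredoxin (Txn1), the peroxiredoxins Prdx1, Prdx2 and Prdx5, the superoxide dismutase Sod1, the glutathione peroxidases Gpx3 and Gpx4 and the autophagy receptor Sqstm1 were chosen by symbol, and all 10 of them were found among the 24421 genes of each count table. The islets came from male C57BL/6J mice aged 8 weeks. The PPTx group, 4 samples, had undergone partial pancreatectomy (PPTx), an operation that removed the splenic side, about 50% of the pancreas, 2 days before the islets were isolated. The control group, 4 samples, had no operation, so the effects of anaesthesia and surgery are part of every comparison of the groups. PPTx islets came from the part of the pancreas left after resection, so the region of the pancreas cannot be told apart from the operation. Each sample pooled islets of 1 to 3 mice, and the spread between samples may therefore be partly technical. Single cells were captured in droplets and their transcripts counted by unique molecular identifiers (UMIs) read from the 3′ end. Sample totals ran from 236645 to 1580152 UMIs with a sample median of 3328 to 8677 UMIs per cell, and 1232 of 1240 deposited cells were kept.

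Iron that is not in use is kept in ferritin, a hollow shell built from a light chain (Ftl1) and a heavy chain (Fth1) that oxidises ferrous iron before it is stored. Free ferrous iron turns hydrogen peroxide into hydroxyl radicals, and β-cells are known for low levels of several peroxide-removing enzymes, so thioredoxin, the peroxiredoxins and the glutathione peroxidases are much studied there. Sqstm1 (p62) carries cargo to autophagosomes and binds Keap1, the inhibitor of the transcription factor NRF2, which drives many antioxidant genes through the antioxidant response element.

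Both ferritin messages are controlled in translation by iron regulatory proteins, which bind a stem-loop in the 5′ untranslated region, the iron-responsive element, when iron is scarce. The elements are shown because a count of mRNA does not read this layer of ferritin control. The stretches of 30 bases were read from GENCODE transcripts on NCBIM37, with the 6-base loop in capitals, and lie in exon 1 of each gene.
Ftl1: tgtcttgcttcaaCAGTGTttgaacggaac
Fth1: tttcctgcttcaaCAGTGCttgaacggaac
The element of Ftl1 lies at chr7:52715149-52715178 on the minus strand, bases 77 to 106 of a 5′ untranslated region of 253 bases. That of Fth1 lies at chr19:10057221-10057250 on the plus strand, bases 29 to 58 of 167. The stretches were identical at 27 of 30 bases, and counted from 1 at the 5′ end the substitutions from Ftl1 to Fth1 were G2T, T5C and T19C.

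The promoters of Gpx3, Ftl1 and Prdx1 are shown because these members had the largest called log2 differences from insulin-led cells in the fits below. Each stretch holds the 250 bases before the start of transcription in the RefSeq annotation of GRCm38.p6, 5′ to 3′ on the strand of the gene, with matches to 5 searched motifs in capitals.
Gpx3: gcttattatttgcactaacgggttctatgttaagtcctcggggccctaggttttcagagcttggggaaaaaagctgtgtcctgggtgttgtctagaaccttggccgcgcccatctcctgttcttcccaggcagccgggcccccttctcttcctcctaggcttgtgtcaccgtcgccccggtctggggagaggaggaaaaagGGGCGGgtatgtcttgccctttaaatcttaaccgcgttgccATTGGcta
Ftl1: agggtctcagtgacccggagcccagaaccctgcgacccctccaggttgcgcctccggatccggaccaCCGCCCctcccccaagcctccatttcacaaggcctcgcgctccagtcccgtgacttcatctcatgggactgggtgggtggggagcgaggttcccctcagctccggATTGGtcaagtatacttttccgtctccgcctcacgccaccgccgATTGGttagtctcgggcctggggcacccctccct
Prdx1: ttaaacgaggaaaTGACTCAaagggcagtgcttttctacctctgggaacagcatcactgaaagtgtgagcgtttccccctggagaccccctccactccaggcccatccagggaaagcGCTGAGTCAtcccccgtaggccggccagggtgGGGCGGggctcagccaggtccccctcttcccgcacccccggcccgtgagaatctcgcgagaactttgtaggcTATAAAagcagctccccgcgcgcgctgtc
The windows are chr11:54902604-54902853 (plus strand) for Gpx3, chr7:45459887-45460136 (minus strand) for Ftl1 and chr4:116685349-116685598 (plus strand) for Prdx1. Motifs were searched on both strands in all 32851 annotated windows of this length, and 14 windows belonged to the 10 members. The antioxidant response element core TGACNNNGC was in 10.2% of all windows and in those of Prdx1 and Sod1. In Prdx1 it lay 133 bases before the start on the reverse strand and overlapped an AP-1 site, TGANTCA, a motif in 6.75% of windows and in no other member. The CCAAT box, in 33.8% of windows, was found in Ftl1, Fth1, Gpx3, Gpx4 and Sod1. The GC box GGGCGG, in 32.7% of windows, was found in 9 of 10 members, all but Prdx2, and TATAAA, in 12.4%, in Fth1, Prdx1, Sod1 and Txn1. Some members had several windows, so the shares of all windows compare with counts of member windows. Of the 14 member windows the GC box was in 11, the CCAAT box in 7 and TATAAA in 4. The antioxidant response element core was in 2 of them and the AP-1 site in 1. A match describes letters only and was not tested for binding.

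Cell types were set by hormone counts. A cell was called insulin-led, Gcg-led, Ppy-led or Sst-led when that hormone had at least 2 times the UMIs of each of the other hormones, and mixed otherwise. This gave 953 insulin-led cells (375 control, 578 PPTx), 114 Gcg-led cells (95 and 19), 130 Ppy-led cells (32 and 98), 13 Sst-led cells (10 and 3) and 22 mixed cells. Counts were summed per sample and class where a sample had at least 5 cells of the class, which left 8 insulin-led, 6 Gcg-led, 7 Ppy-led and no Sst-led sums, and levels are given as CPM, the UMIs of a gene scaled to a common total per class sum. The β-cell and α-cell markers that the rule did not use followed the labels when summed. The 9 β-cell markers together had a median of 51056 CPM in insulin-led, 1607 CPM in Gcg-led and 2513 CPM in Ppy-led sums, and the 8 α-cell markers 1788, 40192 and 3075 CPM. Each list rested mainly on 1 gene, with Iapp at 91.8% of the β-cell list in insulin-led cells and Ttr at 96.0% of the α-cell list in Gcg-led cells. Of the 5 PP-cell markers Pyy made up 99.8% of the list in Ppy-led cells, and its median was 776 CPM in insulin-led, 13461 CPM in Gcg-led and 115903 CPM in Ppy-led sums. Among the others Aqp3 had no UMI in these sums, Vsig1 was at a median of 0 in each class, and neither Etv1 nor Fxyd6 was highest in Ppy-led cells, so the Ppy-led label rests on Ppy and Pyy. No UMI of 5 erythroid markers was seen in these classes.

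A small set of cells stood apart and bore on ferritin. Of the insulin-led cells, 14 (3 control, 11 PPTx) had insulin at under 10% of their UMIs, and 6 of them (1 control, 5 PPTx) held at least 20 UMIs of 9 immune markers. Those 6 cells had 18618 CPM of Fth1 (exact Poisson 95% interval 16490 to 20945, counting error only) and 4503 CPM of Ftl1, with no UMI of Gpx3. Another 4 (1 control, 3 PPTx) held at least 20 UMIs of 6 stellate markers and had 5397 CPM of Fth1 (interval 3993 to 7135) and 2313 CPM of Gpx3, and the last 4 (1 control, 3 PPTx) had 1620 CPM of Fth1 and 1931 CPM of Gpx3. In the other 939 insulin-led cells Fth1 was at 644 CPM. Fth1 differences between classes, the ferritin share and the insulin-led comparison of PPTx with control are given below with and without these 14 cells, a step added after the cells had been seen.

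The ferritin chains were the most abundant members in insulin-led cells and had lower means in Gcg-led and Ppy-led cells. Ftl1 averaged 791 ± 257 CPM (SD, n = 8 samples) in insulin-led, 385 ± 158 CPM (n = 6) in Gcg-led and 303 ± 57.0 CPM (n = 7) in Ppy-led cells, a level 2.06-fold and 2.61-fold lower. Single insulin-led samples had 1137, 860, 505 and 713 CPM in control and 953, 1093, 510 and 561 CPM in PPTx. Gcg-led samples had 460, 640, 217 and 252 CPM in control and 429 and 310 CPM in the 2 PPTx samples. The highest Gcg-led sample overlapped the lowest insulin-led samples, yet within every sample the insulin-led cells were higher, in 6 of 6. Ppy-led samples had 252, 303 and 273 CPM in control and 342, 411, 253 and 288 CPM in PPTx, so the highest of them stayed under the lowest insulin-led sample.

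Classes were compared within samples by the quasi-likelihood test of edgeR. Ftl1 differed from insulin-led cells by -1.49 ± 0.17 on the log2 scale in Gcg-led cells (± SE, adjusted p = 1.3e-11) and by -1.31 ± 0.15 in Ppy-led cells (adjusted p = 8.1e-12), lower in 7 of 7 samples. Fth1 moved less. It averaged 703 ± 67.1 CPM (n = 8) in insulin-led, 546 ± 146 CPM (n = 6) in Gcg-led and 528 ± 105 CPM (n = 7) in Ppy-led cells. By edgeR it fell by 0.58 ± 0.15 in Gcg-led (adjusted p = 0.0012, lower in CPM in 5 of 6 samples) and by 0.45 ± 0.13 in Ppy-led cells (adjusted p = 0.0036, lower in 7 of 7). In the deepest Gcg-led sums the CPM did not fall, with 687 against 615 CPM in insulin-led cells in control replicate 3 and 756 against 757 CPM in control replicate 4. The other Gcg-led sums had 376 to 524 CPM, on 7 to 22 Fth1 UMIs each, against 644 to 692 CPM in insulin-led cells. Without all cells whose leading hormone was under 10% of their UMIs, which were these 14 cells and 3 Ppy-led cells, Fth1 fell by 0.53 in Gcg-led and 0.32 in Ppy-led cells (edgeR adjusted p = 0.0033 and 0.043). These calls for Ftl1 and Fth1 held under all 15 alternatives run. Of 1398 genes tested between the classes, 46.7% were called between Gcg-led and insulin-led cells (23.7% higher, 23% lower) and 47.9% between Ppy-led and insulin-led cells (24.9% higher, 23% lower). Against this background 3 of the 9 tested members were called in Gcg-led and 4 of 9 in Ppy-led cells, with Gpx4 below the low-count filter. Insulin RNA filled 51.0% to 63.0% of the insulin-led sums. The median gene was 0.34 higher in Gcg-led cells in CPM on the log2 scale and 0.04 lower, at -0.04, after the trimmed-mean scaling of edgeR (TMM), on which the fitted changes rest.

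**Figure D1:**
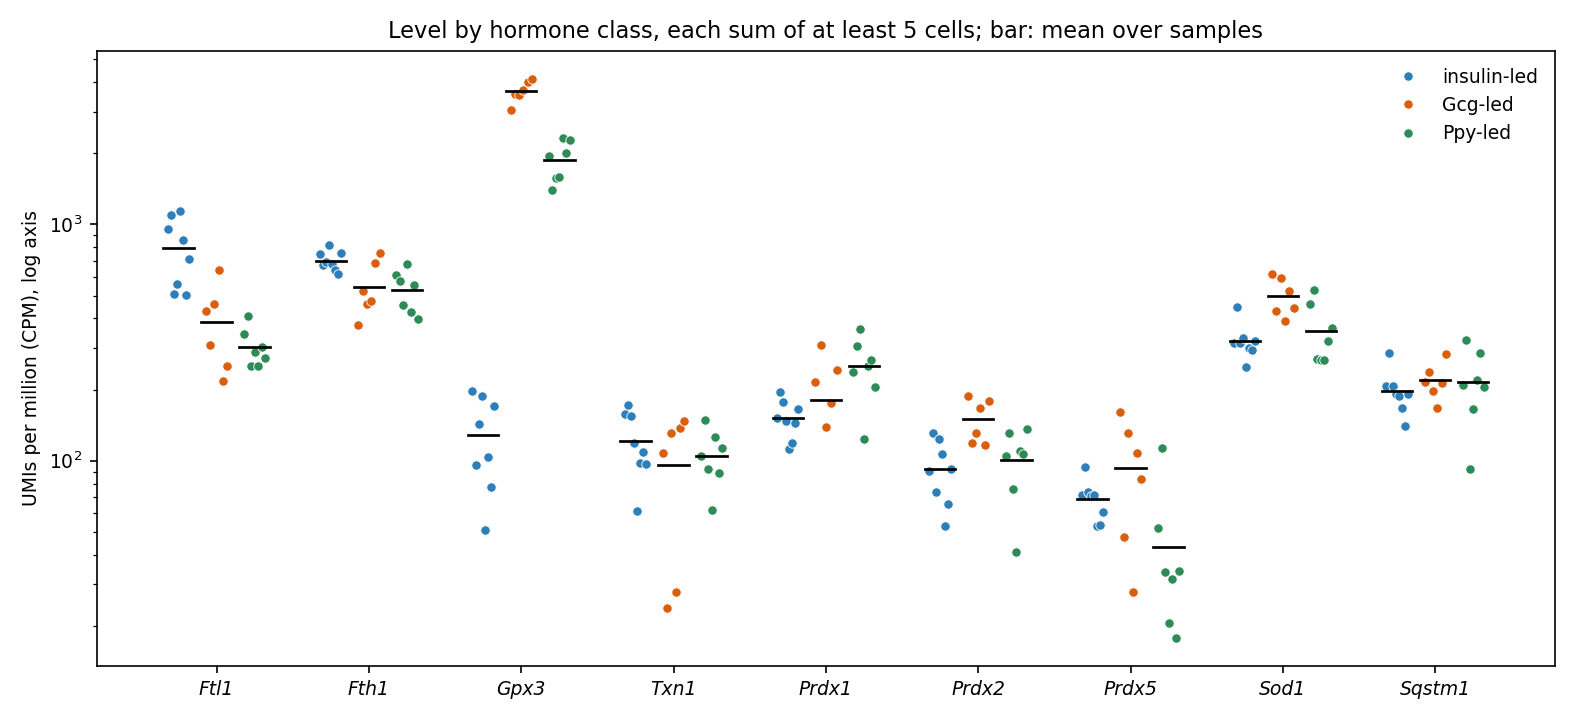
Level of 9 members (vertical log axis, CPM of the class sum) in insulin-led, Gcg-led and Ppy-led cells (colours), with 1 point per sample of at least 5 cells and a bar at the mean over samples; Gpx4 and the single value of 0, Prdx1 in 1 Gcg-led sum, are not drawn as points. Gpx3 lies between 1404 and 4137 CPM in Gcg-led and Ppy-led sums and at or under 198 CPM in insulin-led sums, while the mean of Ftl1 is highest in insulin-led cells.

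The balance of the chains was described by class, without a test. Each UMI stands for 1 molecule tagged at its 3′ end, so the share of Ftl1 in all ferritin UMIs needs no correction for length. How the authors' counting treated near-identical gene copies was not stated, so the share is one of counted UMIs and may differ from that of transcripts. Over all 1232 cells both chains had 5292 UMIs. Ftl1 made up 51.8% ± 8.74 (SD, n = 8) of ferritin UMIs in insulin-led, 41.2% ± 14.6 (n = 6) in Gcg-led and 36.6% ± 3.89 (n = 7) in Ppy-led cells. In insulin-led cells the share was 62.6%, 57.2%, 45.1% and 48.5% in control replicates 1 to 4 and 56.1%, 61.9%, 42.4% and 40.6% in PPTx replicates 1 to 4. The groups overlapped in part, with PPTx replicates 3 and 4 below the lowest control sample and control replicate 1 above every PPTx sample. Replicates 1 and 2 were high and replicates 3 and 4 low in both groups, over a range in which Fth1 moved between 615 and 820 CPM and Ftl1 between 505 and 1137 CPM. In Ppy-led cells every sample lay between 29.8% and 41.6%, and Gcg-led samples ranged from 24.0% to 57.5% with 7 UMIs of each chain in the sample with the fewest. Within samples the share was below the insulin-led one in 5 of 6 Gcg-led and 7 of 7 Ppy-led sums. Without the 14 cells of low insulin the insulin-led share averaged 53.3% ± 9.27 (n = 8), with a range of 41.9% to 63.4%, and PPTx replicate 1 moved from 56.1% to 62.9%, so that PPTx replicates 1 and 2 then lay above control replicate 1.

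**Figure D2:**
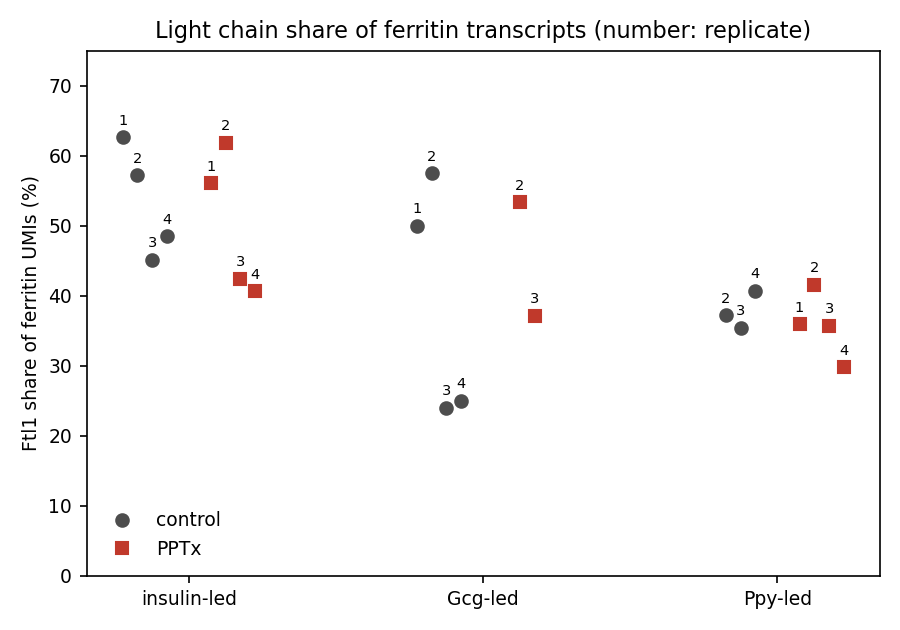
Ftl1 as a percentage of Ftl1 plus Fth1 UMIs (vertical axis) in each sample, by cell class (horizontal axis) and group (circles control, squares PPTx), with the replicate number beside each point. Insulin-led samples spread from 40.6% to 62.6%, and all 7 Ppy-led samples lie at or under 41.6%.

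At 1 fixed depth of 2600 UMIs per cell, a Ftl1 UMI was present in 80.4% of 871 insulin-led, 60.4% of 96 Gcg-led and 59.6% of 114 Ppy-led cells, against 93.3%, 72.8% and 81.5% without thinning. Fth1 was present in 78.4%, 79.2% and 65.8% of these thinned cells. In Gcg-led cells Ins2 stood at 1.53% and Ftl1 at 38.6% of the insulin-led level, and the part of carried-over RNA or doublets in either was not tested. In the 13 Sst-led cells, pooled over samples and without a test, Fth1 had 1066 CPM (95% interval 775 to 1432) and Ftl1 461 CPM (277 to 719).

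Gpx3, the secreted glutathione peroxidase found in plasma, separated the cell types more than any other member. It averaged 3668 ± 380 CPM (SD, n = 6) in Gcg-led, 1872 ± 359 CPM (n = 7) in Ppy-led and 128 ± 54.4 CPM (n = 8) in insulin-led cells, 28.6-fold and 14.6-fold above the insulin-led mean. Gcg-led samples had 3545, 3702, 3993 and 4137 CPM in control and 3060 and 3573 CPM in PPTx. Ppy-led samples had 2313, 1996 and 2282 CPM in control and 1950, 1404, 1575 and 1586 CPM in PPTx. No sample of one class reached the range of another. By edgeR the log2 difference from insulin-led cells was 4.59 ± 0.17 in Gcg-led (adjusted p = 2.6e-34, higher in 6 of 6 samples) and 3.79 ± 0.16 in Ppy-led cells (adjusted p = 6.6e-32, 7 of 7). Between the latter, Ppy-led cells were 1.96-fold lower in mean CPM and fell by 0.80 ± 0.16 on the log2 scale (edgeR adjusted p = 0.00020, 5 of 5 samples). The 13 Sst-led cells together had 2012 CPM (95% interval 1602 to 2494) with a Gpx3 UMI in all 13.

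In insulin-led cells a Gpx3 UMI was seen in a minority. It was found in 215 of 953 cells (22.6%), and in 14.7% of cells thinned to 2600 UMIs, against 100% of thinned Gcg-led and 93.0% of thinned Ppy-led cells. Thinned insulin-led cells held a mean of 0.33 Gpx3 UMIs, so a cell without a UMI cannot be taken to lack the transcript. Gcg, which β-cells should lack, was seen in 27.1% of the thinned insulin-led cells, but Gcg was far more abundant in its own cells, with 438236 CPM against 3886 CPM of Gpx3 over the pooled Gcg-led cells, so its share is no background for Gpx3. In level, Gpx3 stood at 3.33% of its Gcg-led level in insulin-led cells, whereas Gcg stood at 0.124% and Ttr, another transcript of α-cells, at 4.51%. The 48 insulin-led cells with at least 5 Gpx3 UMIs held 60.5% of the Gpx3 UMIs of the class, and the 16 cells with at least 10 held 35.3%. The part of doublets or of cells between types in this was not tested.

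Gpx4, the enzyme that reduces lipid peroxides in membranes and guards against ferroptosis, was barely detected. It had 73 UMIs over all 1232 cells, 61 of them in insulin-led cells (9.57 CPM, exact 95% interval 7.32 to 12.3). Insulin-led samples ranged from 1.82 to 17.4 CPM, and Gcg-led, Ppy-led and Sst-led cells had 4, 6 and 0 UMIs. No difference between classes or groups was detectable for Gpx4 at this depth. How the authors' counting treated near-identical gene copies was not stated, and counts of Ftl1, Fth1, Gpx4 and other members with processed pseudogenes are uncertain to that extent.

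Thioredoxin and the peroxiredoxins, which pass electrons from NADPH to hydrogen peroxide, averaged between 43.2 and 251 CPM in these classes. Txn1 averaged 121 ± 37.9 CPM (n = 8) in insulin-led, 95.8 ± 55.8 CPM (n = 6) in Gcg-led and 105 ± 28.0 CPM (n = 7) in Ppy-led cells, and the fitted log2 differences of -0.43 ± 0.25 and -0.29 ± 0.20 did not pass the edgeR test (adjusted p = 0.15 and 0.24). Among the classes compared by sums, Prdx1, a cytosolic peroxiredoxin, was highest in Ppy-led cells with 251 ± 75.7 CPM (n = 7). It had 152 ± 28.1 CPM (n = 8) in insulin-led and 180 ± 106 CPM (n = 6) in Gcg-led cells. Pooled over samples, the 13 Sst-led cells had 291 CPM on 12 UMIs (95% interval 150 to 508), against 269 CPM in pooled Ppy-led cells. Ppy-led samples had 252, 267 and 204 CPM in control and 238, 307, 362 and 124 CPM in PPTx. All but PPTx replicate 4, the shallowest of them with 6 Prdx1 UMIs, were above the highest insulin-led sample at 196 CPM. By edgeR Prdx1 rose by 0.66 ± 0.16 over insulin-led cells (adjusted p = 0.00038, above it in 6 of 7 samples), a call that 14 of 15 alternatives kept. Over Gcg-led cells it differed by 0.70 ± 0.23 (edgeR adjusted p = 0.041, higher in 4 of 5 samples), a call kept in only 5 of 15 alternatives, whose adjusted p ran from 0.022 to 0.51. A Prdx1 UMI was seen in 50.9% of thinned Ppy-led, 32.0% of insulin-led and 28.1% of Gcg-led cells.

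Prdx2, also cytosolic, averaged 92.1 ± 27.7 CPM (n = 8) in insulin-led, 150 ± 31.5 CPM (n = 6) in Gcg-led and 101 ± 32.9 CPM (n = 7) in Ppy-led cells. It was above the insulin-led value in 6 of 6 samples with Gcg-led cells, but the fitted difference of 0.43 ± 0.23 missed the threshold (edgeR adjusted p = 0.12). Over 15 alternatives this difference ran from 0.0024 to 0.47 and was called in 0 of them. Prdx5, which acts in mitochondria, peroxisomes and cytosol, had 68.7 ± 13.3, 93.4 ± 50.4 and 43.2 ± 32.7 CPM in the same order, with fitted values of 0.22 ± 0.29 and -0.44 ± 0.27, neither called. Sod1, the copper-zinc enzyme that turns superoxide into hydrogen peroxide, averaged 321 ± 55.9 CPM in insulin-led, 499 ± 93.1 CPM in Gcg-led and 354 ± 104 CPM in Ppy-led cells. Gcg-led cells were higher in CPM in 6 of 6 samples, with 0.26 ± 0.14 after TMM scaling (edgeR adjusted p = 0.13). Sqstm1 was the most even member, with 198 ± 42.1, 219 ± 39.4 and 214 ± 76.0 CPM, and fitted differences of -0.11 ± 0.19 and 0.05 ± 0.16. As fitted here, Prdx2, Prdx5, Sod1 and Sqstm1 passed the test in none of the class comparisons.

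The genes around the members were counted in 5 lists drawn up with earlier results of these data known. Of 27 list genes tested, 12 (44.4%) were called between Gcg-led and insulin-led cells and 12 (44.4%) between Ppy-led and insulin-led cells, shares near the 46.7% and 47.9% of all genes. In the iron handling list 3 of 22 genes passed the low-count filter. Glrx5, a mitochondrial glutaredoxin of iron-sulphur cluster assembly, fell by 1.09 ± 0.29 in Gcg-led cells (edgeR adjusted p = 0.0016) and by 1.45 ± 0.26 in Ppy-led cells (adjusted p = 3.9e-06). Pcbp1, a chaperone that delivers iron to ferritin, rose by 0.63 ± 0.19 in Gcg-led cells (edgeR adjusted p = 0.0041, a call kept in 11 of 15 alternatives and lost at 0.38 without control replicate 3 and at 0.18 without the low-count filter) and by 0.42 ± 0.17 in Ppy-led cells (adjusted p = 0.029), the latter call kept in 6 of 15 alternatives and lost at 0.30 to 0.38 without control replicate 1, 2 or 4 or PPTx replicate 1 or 2. The Ppy-led value of Pcbp1 was 0.021 without the low-count filter, 0.21 in thinned cells and 0.24 with the largest hormone as class rule. The third gene of this list was not called, and the transferrin receptor and ferroportin genes were below the filter.

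Of 22 genes of the thioredoxin, peroxiredoxin and superoxide list 8 were tested, and 1 rose and 3 fell in Gcg-led cells while 4 rose and 2 fell in Ppy-led cells. Prdx4, the peroxiredoxin of the endoplasmic reticulum, was higher in both, by 1.42 ± 0.36 (edgeR adjusted p = 0.00067) and 1.89 ± 0.26 (adjusted p = 8.8e-09). Prdx6, which also repairs peroxidised phospholipids, was lower in both, with -0.90 ± 0.24 and -0.72 ± 0.20 (edgeR adjusted p = 0.0013 and 0.0021), and Park7, a redox-sensitive chaperone, fell by 0.65 ± 0.19 in Ppy-led cells (adjusted p = 0.0033). Oxr1 and Txnip, the inhibitor of thioredoxin, went opposite ways in the pair of classes. Oxr1 had -0.96 ± 0.37 in Gcg-led and 0.69 ± 0.23 in Ppy-led cells (edgeR adjusted p = 0.026 and 0.010, the latter call kept in 9 of 13 alternatives), 1.66 ± 0.40 apart (adjusted p = 0.0027). Its Gcg-led call was lost at -0.68 without control replicate 3, and its Ppy-led call at 0.48 and 0.56 without PPTx replicate 2 or 3. Txnip fell by 0.57 ± 0.18 in Gcg-led and rose by 0.47 ± 0.13 in Ppy-led cells (edgeR adjusted p = 0.0057 and 0.0024, the latter call kept in 11 of 15 alternatives, with a lowest value of 0.049 without the low-count filter), and the difference between these classes was 1.04 ± 0.20 (adjusted p = 7.2e-05). Sepp1, the secreted selenium carrier, rose by 0.57 ± 0.13 in Ppy-led cells (edgeR adjusted p = 0.00016).

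In the glutathione list 4 of 25 genes were tested. Gpx1, the cytosolic glutathione peroxidase, was lower by 0.65 ± 0.26 in Gcg-led (edgeR adjusted p = 0.032, kept in 12 of 15 alternatives) and by 0.90 ± 0.22 in Ppy-led cells (adjusted p = 0.00038), opposite in direction to Gpx3. The Gcg-led call of Gpx1 was lost at -0.55 without control replicate 3 and at -0.57 without PPTx replicate 2. Slc3a2, a subunit of the cystine importer, rose by 0.82 ± 0.22 in Gcg-led cells (edgeR adjusted p = 0.0017) and was lower by 1.31 ± 0.31 in Ppy-led than in Gcg-led cells (adjusted p = 0.0016). Of the NRF2 list 3 of 17 genes were tested, and Nfe2l1, a relative of NRF2, fell by 0.92 ± 0.30 in Gcg-led cells (edgeR adjusted p = 0.0080), a call lost at -0.72 without control replicate 3. Of the autophagy and lysosome list 9 of 19 were tested. The lysosomal membrane protein Lamp1 fell by 1.04 ± 0.18 in Gcg-led and 0.85 ± 0.16 in Ppy-led cells (edgeR adjusted p = 2.0e-06 and 4.5e-06), whereas the proteases Ctsl and Ctsb rose in Ppy-led cells by 0.997 ± 0.18 and 0.89 ± 0.17 (edgeR adjusted p = 3.4e-06 and 1.2e-05). In Gcg-led cells Ctsl rose by 0.57 ± 0.22 (edgeR adjusted p = 0.030), a call kept in 7 of 15 alternatives and lost at 0.32, 0.51 and 0.47 without control replicate 3 or PPTx replicate 2 or 3, and Ctsd fell by 0.83 ± 0.23 (adjusted p = 0.0023), though in CPM it was lower in only 3 of 6 samples. Besides the losses of Pcbp1 and Txnip, without the low-count filter the Ppy-led calls of Sepp1 (0.13), Oxr1 (0.29), Ctsb (0.49) and Ctsl (0.60) were lost, as were that of Ctsl in Gcg-led cells (0.14) and those of Slc3a2 in Gcg-led cells (0.41) and between Ppy-led and Gcg-led cells (-1.29), with edgeR adjusted p from 0.057 to 0.89. In thinned cells the Ppy-led calls of Sepp1 (0.26), Txnip (0.35), Ctsb (0.59) and Gpx1 (-0.53) and the Gcg-led calls of Pcbp1 (0.42), Ctsl (0.68) and Prdx4 (1.10) were lost as well, with edgeR adjusted p from 0.066 to 0.25. Between Ppy-led and Gcg-led cells 8.44% of the 1398 genes were called (3.72% higher, 4.72% lower in Ppy-led), against 2 of 9 members.

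PPTx and control were compared within insulin-led cells to ask whether the members followed the operation. None of the 9 tested members passed the edgeR test in insulin-led cells, where 0.288% of 5911 genes were called. At an unadjusted p under 0.05 edgeR gave 1 member, Txn1, and 558 genes, and DESeq2 called 0 members, with 1 at an unadjusted p under 0.05. The median log2 difference over the 9 members was 0.28 and over all tested genes -0.01. The members were chosen with earlier results of these data known, so these medians are a description only. Ductal, immune, acinar and stellate markers were low but reached higher values in PPTx. The 9 immune markers, all of them detected, summed to 15.3 to 89.7 CPM in control and 22.8 to 273 CPM in PPTx, and the 6 stellate markers, all detected, to 0 to 90.7 and 1.04 to 257 CPM.

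Txn1, the main thiol reductase of the cytosol, had 61.2, 97.4, 109 and 96.5 CPM in control and 158, 173, 155 and 118 CPM in PPTx insulin-led cells. Every PPTx sample lay above every control sample. Such a pattern was seen for 4.8% of the tested genes in CPM and for 2.98% after TMM scaling, in which Txn1, Prdx5 and Sqstm1 were the members concerned, the lowest PPTx and the highest control sample of Sqstm1 both lying at 198 CPM. The group means of Txn1 were 90.9 ± 20.6 CPM (SD, n = 4) and 151 ± 23.0 CPM (n = 4), and the fitted log2 difference was 0.54 ± 0.18 (edgeR, unadjusted p = 0.0057, adjusted p = 0.27). Over 17 alternatives the difference lay between 0.45 and 0.69 and the adjusted p between 0.18 and 0.59, so it was not called in any. In the 630 insulin-led cells without a UMI of an immune, endothelial, acinar, ductal, stellate or erythroid marker it was 0.61.

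**Figure D3:**
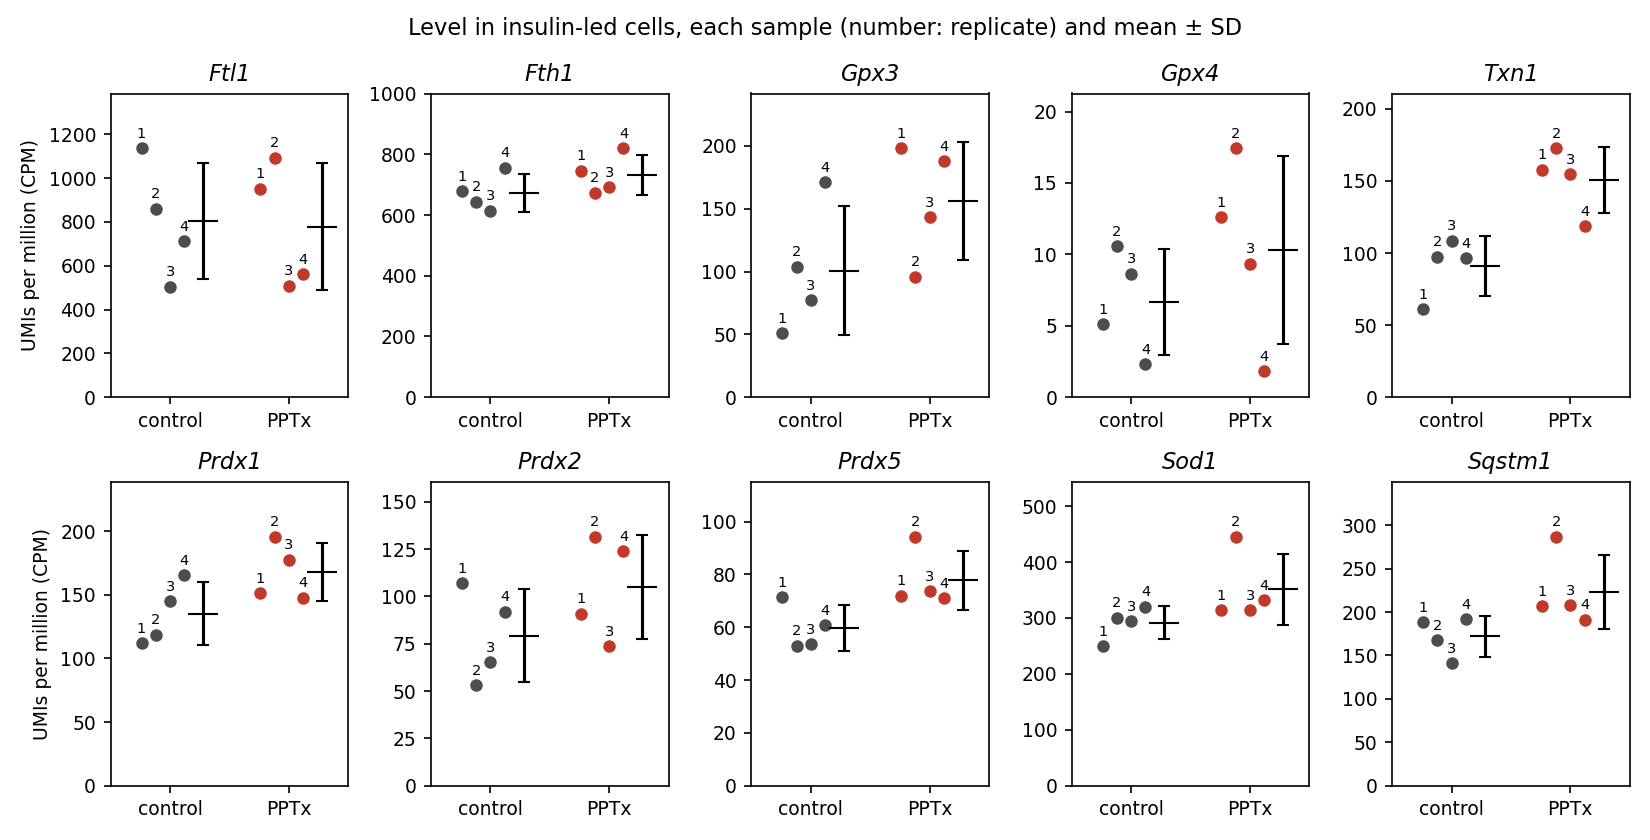
Level of each of the 10 members (panels, CPM, each with its own vertical axis from 0) in insulin-led cells of the 4 control and 4 PPTx samples, with a numbered point for each replicate and a bar for the mean and SD. Txn1, with control at 61.2 to 109 and PPTx at 118 to 173, is the member without overlap in CPM, joined by Prdx5 and Sqstm1 after TMM scaling.

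The peroxiredoxins were a little higher on average in PPTx without passing the test. Prdx1 had 112, 119, 145 and 165 CPM in control and 151, 196, 178 and 148 CPM in PPTx, overlapping ranges with a fitted difference of 0.16 ± 0.16 (edgeR adjusted p = 0.83). Prdx2 had 107, 52.9, 65.3 and 91.9 CPM against 90.8, 131, 73.7 and 124 CPM (0.34 ± 0.22, adjusted p = 0.66). Prdx5 had 71.4, 52.9, 53.5 and 60.9 CPM against 71.9, 94.3, 73.7 and 71.1 CPM (0.31 ± 0.18, adjusted p = 0.62). In Prdx5 only control replicate 1 reached into the PPTx range. Each of these differences was within 2 standard errors of 0. Over 17 alternatives they ran from 0.092 to 0.33 for Prdx1, from 0.22 to 0.58 for Prdx2 and from 0.19 to 0.39 for Prdx5, and none was called. The lowest values of Prdx1 and Prdx2 came without control replicate 1 and control replicate 2.

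Sod1 averaged 291 ± 29.8 CPM in control and 351 ± 63.3 CPM in PPTx (n = 4 each). PPTx replicate 2 was highest with 445 CPM, and the other 3 PPTx samples lay at 314, 313 and 332 CPM. Its fitted value was 0.14 ± 0.15 (edgeR adjusted p = 0.84), and 0.079 without PPTx replicate 2. Sqstm1 had 189, 167, 141 and 192 CPM in control and 207, 287, 208 and 191 CPM in PPTx, with 0.28 ± 0.16 (edgeR adjusted p = 0.60). Gpx3 had 51.0, 104, 77.1 and 171 CPM in control and 198, 95.8, 143 and 188 CPM in PPTx, with 0.44 ± 0.28 (edgeR adjusted p = 0.64). The groups of Gpx3 overlapped. Over 17 alternatives its difference ran from -0.06, in the 630 cells without a non-endocrine marker, to 0.84, without control replicate 4, and it was 0.67 without PPTx replicate 2 and 0.31 without the 14 cells of low insulin. The α-cell markers in insulin-led cells, mostly Ttr, summed to 1309 to 1748 CPM in control and 1827 to 2266 CPM in PPTx, and the 5 PP-cell markers, 4 of them detected and mostly Pyy, to 214 to 914 CPM in control and 995 to 2505 CPM in PPTx. Neither list overlapped between the groups, a pattern that 4.8% of the tested genes showed in CPM in this direction. The 5 δ-cell markers, 4 of them detected, did overlap, at 201 to 550 CPM in control and 496 to 687 CPM in PPTx. The part of these lists in the Gpx3 values was not tested. The Gpx4 samples held 1, 5, 11 and 2 UMIs in control against 10, 22, 9 and 1 after PPTx, too few to compare.

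Ferritin did not separate the groups. Ftl1 averaged 804 ± 265 CPM in control and 779 ± 288 CPM in PPTx insulin-led cells (n = 4 each), with a fitted difference of -0.13 ± 0.21 (edgeR adjusted p = 0.91). Fth1 had 678, 644, 615 and 757 CPM in control and 747, 673, 692 and 820 CPM in PPTx, and the fitted difference was 0.03 ± 0.15 (edgeR adjusted p = 0.97). Without the 14 cells of low insulin, of which 11 were from PPTx, Fth1 was 678, 644, 567 and 735 CPM in control and 551, 618, 692 and 778 CPM in PPTx, with a fitted difference of -0.08. PPTx replicate 1 changed most, from 747 to 551 CPM. The sign differed with and without these cells, and both values were smaller than their standard errors.

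Around the members, no gene of the 5 lists was called in insulin-led cells by edgeR. Of the tested genes, 1 of 13 in iron handling, 5 of 15 in glutathione, 3 of 16 in the thioredoxin list, 0 of 12 in NRF2 and 4 of 15 in autophagy had an unadjusted p under 0.05, against 9.44% of all 5911 genes, and the list medians lay between -0.15 and 0.00. DESeq2, which called 0.457% of all tested genes, called 1 of these genes, Gpx2, which is named here after its values were seen. Gpx2, a glutathione peroxidase known from the gut epithelium, had 45.9, 40.2, 33.0 and 42.5 CPM in control and 90.8, 89.5, 62.3 and 71.1 CPM in PPTx, without overlap, as for 4.8% of all tested genes in the same direction. Its difference was 0.89 ± 0.21 by edgeR (adjusted p = 0.070) and 0.89 ± 0.26 by DESeq2 (adjusted p = 0.046). The tables also hold a Gpx2 pseudogene, Gpx2-ps1, with 75 UMIs over all cells, so reads of Gpx2 may have been split.

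In Ppy-led cells, 3 control and 4 PPTx samples, no gene of 638 tested was called (0% by edgeR, with 39 at an unadjusted p under 0.05, and 0 by DESeq2, with 14). Of the members 7 were tested, none of them with an unadjusted p under 0.05 by either tool, and Prdx2, Prdx5 and Gpx4 were below the low-count filter. Gpx3 had 2313, 1996 and 2282 CPM in control and 1950, 1404, 1575 and 1586 CPM in PPTx. Every PPTx sample was below every control sample, as in 2.51% of the tested genes in CPM and 3.13% after TMM scaling, and the fitted difference was -0.46 ± 0.27 (edgeR adjusted p = 0.77). The 9 β-cell markers, 8 of them detected in Ppy-led cells and mostly Iapp, summed there to 677 to 2513 CPM in control and 1846 to 9525 CPM in PPTx, and their part in this was not tested. Fth1 averaged 458 ± 82.8 CPM in control (n = 3) and 581 ± 94.0 CPM in PPTx (n = 4), with 0.30 ± 0.24 (edgeR adjusted p = 0.90), and 0.27 without cells whose leading hormone was under 10% of their UMIs. The other tested members, Sod1, Ftl1, Prdx1, Txn1 and Sqstm1, had overlapping groups and fitted values between -0.21 and 0.26.

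Gcg-led cells were not tested for the operation on their own, since only 2 PPTx samples had at least 5 cells, 7 cells each, and such a test was planned for at least 3 samples a group. Their values are given beside the controls. Gpx3 was 3060 and 3573 CPM in PPTx and 3545 to 4137 CPM in control. Fth1 was 376 and 524 CPM in PPTx and 460 to 756 CPM in control, and Txn1 107 and 23.8 CPM, on 4 UMIs and 1 UMI, against 27.8 to 147 CPM. The ranges overlapped in each of these genes. The PPTx sums also held more Pyy, 28264 and 69145 CPM against 10669 to 15677 CPM in control, and less Ttr, 27700 and 32751 CPM against 38671 to 44553 CPM, and the part of this in the values was not tested.

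Whether the operation acted differently on the cell types was tested as an interaction within samples. For Gcg-led against insulin-led cells 0% of 4252 genes were called, 172 having an unadjusted p under 0.05, and of 9 members only Txn1 had one, with a difference of differences of -1.59 ± 0.72 (edgeR, unadjusted p = 0.028, adjusted p = 0.9997). For Ppy-led against insulin-led cells 0.0227% of 4402 genes were called and no member. Of 9 members Gpx3 alone had an unadjusted p under 0.05 there, with -0.68 ± 0.29 (edgeR, unadjusted p = 0.020, adjusted p = 0.81), and the fitted values of the members ran from -0.68 to 0.83. DESeq2 was not run on these interactions.

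**Figure D4:**
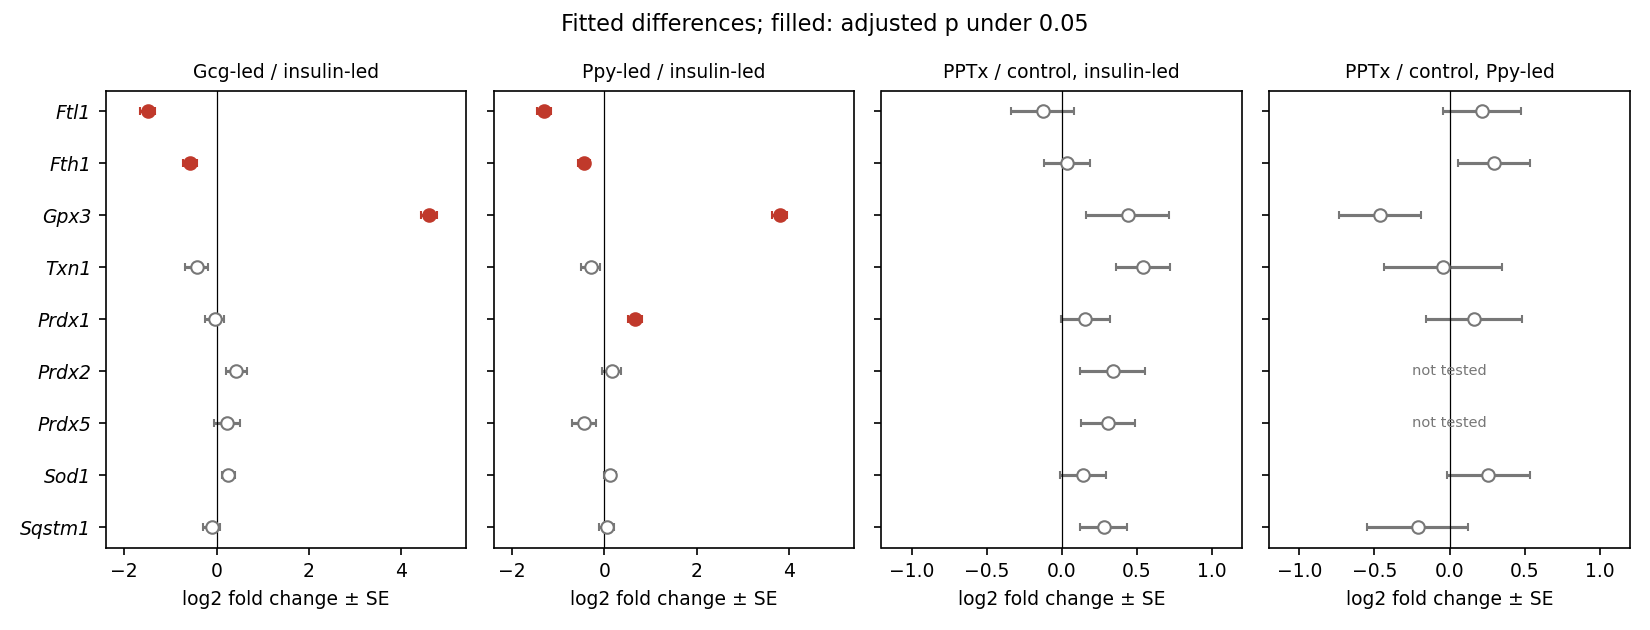
Fitted log2 differences (horizontal axis, points with standard errors) of the tested members (rows) for Gcg-led and Ppy-led against insulin-led cells and for PPTx against control in insulin-led and Ppy-led cells, filled where edgeR gave an adjusted p under 0.05; the axes of the class and group panels differ in scale. The class differences of Gpx3 reach 4.59, while those of the operation lie between -0.46 and 0.54, none called.

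Replicating insulin-led cells were described apart because the study was designed around β-cell replication after PPTx. Cells with at least 2 UMIs of 10 replication markers numbered at least 5 in 3 samples, PPTx replicates 1 to 3, with 5, 15 and 8 cells. In these cells Txn1 had 386, 238 and 223 CPM against 142, 168 and 148 CPM in the other insulin-led cells of the same samples, and Prdx1 174, 300 and 294 CPM against 150, 189 and 166 CPM. Both were higher in 3 of 3 samples, as were 16.6% of the 709 genes of at least 100 CPM on average in the other cells, while 20.6% of those genes were lower in 3 of 3. Sod1, with 328, 463 and 329 CPM against 313, 444 and 312 CPM, was nearly level, and Sqstm1 was at 174, 275 and 164 CPM against 209, 288 and 212 CPM. Ftl1, at 502, 1114 and 305 CPM against 984, 1092 and 529 CPM, Fth1, at 425, 939 and 552 CPM against 769, 655 and 706 CPM, and Gpx3, at 0, 363 and 47.0 CPM against 212, 77.8 and 153 CPM, were each higher in only 1 of 3 samples, PPTx replicate 2. Prdx2 and Gpx4 were higher in 2 of 3 and Prdx5 in 1 of 3. The insulin-led cells of low insulin were kept in this description. Over all insulin-led cells of PPTx replicate 1, Fth1 was 747 CPM with and 551 CPM without them. The part of these cells in the comparison with replicating cells there was not tested. The values rest on 58 UMIs of each of Txn1 and Prdx1 in 28 cells, and no test was made on 3 samples.

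The genes whose level ran most like that of each ferritin chain over the 21 class sums were sought among 689 genes of at least 100 CPM on average. For Ftl1 they were Ero1lb (Pearson r = 0.859), an oxidase of the endoplasmic reticulum enriched in β-cells, Selt (0.841) and the calcium pump Atp2a2 (0.839). For Fth1 they were Ddc (0.808), the aromatic amino acid decarboxylase, and the endoplasmic reticulum chaperones Calr (0.761) and Fkbp2 (0.754). The 21 sums share libraries and classes, and the values are given as a description without a test.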

How the data were processed

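Islet cells of 4 control and 4 PPTx samples were measured by droplet RNA-seq. Per the paper's methods the authors aligned reads to mm10 and made UMI counts with Cell Ranger, and they deposited 1 table of whole-number counts per sample, without normalization, for cells selected by a rule not given in the sources used here. The methods name the ddSEQ system and the labels a Chromium kit. The limits of the study, 100 to 3000 genes and 100 to 20000 UMIs per cell, were applied, and no doublet caller was run. Barcodes were named by sample, since 1 occurred in more than 1 sample.

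CPM and sums per sample and class of at least 5 cells were computed in Python, and sums were compared with edgeR 4.0.16 (filterByExpr, TMM, quasi-likelihood test) in R, adjusted by Benjamini-Hochberg over all genes tested at 0.05, two-sided. The fit was tested on simulated counts. Class comparisons took the sample as a block. Alternatives were DESeq2 1.42.0, no low-count filter, hormone genes left out, a hormone ratio of 5 or the largest hormone, cells thinned to 2600 UMIs (the 10th percentile, leaving out 123 cells), cells with non-endocrine markers left out, a replicate block, each sample left out and, chosen after seeing the data, cells under 10% leading hormone left out.

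All 10 members are named in the text. From the 5 lists, up to 4 called genes each way per comparison could be named, and for each ferritin chain the 3 genes of most similar level. The members and lists were chosen with earlier results of these data known. Intervals are exact Poisson intervals and cover counting error only. Positions are from GRCm38.p6 (RefSeq) or NCBIM37 (GENCODE), as stated. No fold changes or p-values of the authors were used.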

Additional observations from a re-analysis of the deposited data

Results flagged for a closer look

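In 40 groups of 4 samples, 5 held a level that stood apart from the other 3 by Dixon's ratio, where chance alone gives about 1 in 20. In 3 of them the sample was PPTx replicate 2 in insulin-led cells. Sod1 was 445 CPM there with the next sample at 332 CPM, Sqstm1 287 CPM with the next at 208 CPM, and Prdx5 94.3 CPM with the next at 73.7 CPM. The same sample had the lowest insulin share of the insulin-led sums, 51.0%, and the largest TMM factor, 1.18. After TMM scaling its levels were 376 CPM for Sod1 with the next at 355 CPM, 242 CPM for Sqstm1 with the next at 209 CPM, and 79.7 CPM for Prdx5 with the next at 76.1 CPM. Of the insulin-led groups, 1 stood apart by the same ratio after TMM scaling, Fth1 in control replicate 4, at 783 CPM with the next at 670 CPM. The other 2 of the 5 levels in unscaled CPM lay in Gcg-led control cells and rest on very few molecules. Gpx4 was 12.5 CPM in replicate 3, from 3 UMIs, and 0 in the other 3 samples. Txn1 was 27.8 CPM in replicate 2, from 1 UMI in 11 cells, with the next sample at 131 CPM.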

How the results depend on the processing

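Of 135 values of the 9 called member differences under the alternatives, 124 kept direction and call, 11 lost the call and none reversed. Of the 11, 10 belonged to Prdx1 between Ppy-led and Gcg-led cells, and 1 to Prdx1 between Ppy-led and insulin-led cells without the low-count filter (0.25, where the median of all genes moved to -0.43). Members called between Ppy-led and Gcg-led cells fell from 2 to 1 with DESeq2, no filter, a hormone ratio of 5, the largest hormone or thinned cells, and numbered 1 to 2 when a sample was left out (1 without control replicate 1, 2 or 3 or PPTx replicate 2 or 3).

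Genes called for PPTx in insulin-led cells were 17, and 27 with DESeq2, 90 without the filter, 6 in thinned cells and 1 to 17 with a sample left out (1 without control replicate 1 or PPTx replicate 1, 2 without control replicate 2, 10 without control replicate 4). In Ppy-led cells 0 became 2 without the filter, 1 at a ratio of 5 and 0 to 1 with a sample left out. Between Gcg-led and insulin-led cells 653 became 1319 without the filter, 987 with the largest hormone and 342 thinned. Between Ppy-led and insulin-led cells 670 became 1480, 1009 and 310, and between Ppy-led and Gcg-led cells 118 became 49 thinned. For the interaction with Ppy-led cells 1 became 0 without hormone genes or without the cells of low leading hormone, and 0 to 3 with a sample left out. For Gcg-led cells it was 0 to 1. With the replicate number as a block (replicate block), 33 genes were called in insulin-led and 3 in Ppy-led cells, with no member among them. Same-numbered samples correlated at 0.051, 0.036, 0.097 and 0.15 over 5911 genes, for each PPTx sample its highest value with any control. Control replicate 2 correlated more with PPTx replicate 3, at 0.062. The main fit did not take the numbers as pairs, and whether they mark a shared batch was not tested.

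Of 52 member differences not called, 15 changed sign under at least 1 alternative and 2 were called under 1, both without the low-count filter: Txn1 between Gcg-led and insulin-led cells (-0.85, edgeR adjusted p = 0.038) and Prdx5 between Ppy-led and insulin-led cells (-0.82, adjusted p = 0.048). For PPTx in insulin-led cells the changes of sign were in Fth1 (-0.037 thinned, -0.053 without non-endocrine markers, -0.076 without cells of low insulin, -0.067 to 0.13 with a sample left out), Ftl1 (-0.28 to 0.043 with a sample left out) and Gpx3 (-0.055 without non-endocrine markers). For PPTx in Ppy-led cells they were Prdx1 (-0.19 thinned, -0.070 to 0.29 with a sample left out) and Txn1 (0.10 without the filter, -0.18 to 0.10). For Gcg-led against insulin-led cells they were Prdx1 (0.0035 without hormone genes, -0.16 to 0.0045), Prdx5 (-0.21 without the filter, -0.00012 with the largest hormone, -0.087 to 0.32) and Sod1 (-0.21 without the filter). For Ppy-led against insulin-led cells they were Prdx2 (-0.21 without the filter, -0.14 thinned), Sod1 (-0.31, -0.26 and -0.0017 with the largest hormone) and Sqstm1 (-0.060 with DESeq2, -0.35, -0.021 thinned, -0.10 with the largest hormone, -0.00013 at a ratio of 5, -0.062 to 0.17). Txn1 between Ppy-led and Gcg-led cells was -0.14 with the largest hormone and -0.030 to 0.44 with a sample left out. In the interactions Prdx1 ran from -0.072 to 0.34 (Ppy-led), and Prdx5 from -0.47 to 0.18 and Sod1 from -0.18 to 0.12 (Gcg-led). The causes were not tested. Not run, for lack of samples, were the Ppy-led comparison without non-endocrine markers and the Gcg-led interaction without PPTx replicate 2 or 3. Leaving out a sample with no sum of the class (control replicate 1 for Ppy-led, PPTx replicate 1 or 4 for Gcg-led cells) leaves the PPTx comparison or interaction of that class as it was. The interactions were fitted only without hormone genes, without cells of low leading hormone and with samples left out.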
